A study of Homo sapiens with 12 samples.

Results

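The genes described here are 10 members of the fibroblast growth factor (FGF) system: the ligands FGF9, FGF1, FGF2 and FGF5, the receptors FGFR1, FGFR2, FGFR3, FGFR4 and FGFRL1, and the adaptor FRS2. They were chosen by name, with earlier results of these data known, and were matched by symbol to the gene identifiers, 10 of 62703 listed. RNA of HK2 cells, an immortalised line of human renal proximal tubular epithelial cells, was sequenced from 4 groups with 3 libraries each, 12 in all. NG cells were kept in 5.5 mM glucose and received a control vector, and si-FGF9 cells were kept in 5.5 mM glucose and received a small interfering RNA (siRNA) against FGF9 with a lipid reagent. HG cells were kept in 50 mM glucose, and HG+OE-FGF9 cells were kept in 50 mM glucose and received a lentivirus vector that carries FGF9. These conditions follow the labels, while the text of the study also describes NG as a mannitol medium and the FGF9 vector as an adenovirus, so that whether HG versus NG includes a difference in osmolarity is not settled. No non-targeting siRNA and no vector for the HG group were described. An effect of the siRNA or of the vector itself therefore cannot be told apart from an effect of FGF9. In HG versus NG, an effect of glucose cannot be told apart from one of the control vector in NG. The 4 groups are of 1 cell line, and nothing states that the 3 libraries of a group came from separate cultures, so the p-values measure the spread between libraries, which may be technical.

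FGFs are secreted proteins that bind receptor tyrosine kinases on the cell surface, with heparan sulphate chains as cofactors. The bound receptors phosphorylate the adaptor FRS2, which recruits further adaptors and passes the signal to RAS and the ERK kinases. In the kidney, FGF9 is known for its part in keeping nephron progenitor cells during development. The receptors prefer different ligands, and FGF9 is known to bind FGFR3 and certain splice forms of FGFR2 well.

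The authors deposited TPM, the transcripts of a gene per 1000000 transcripts, a level scaled for transcript length and to the same sum in each library, so that levels can be compared between genes but the depth of each library is unknown. The number of genes at 1 TPM or more ranged from 11549 to 13949 over the libraries. Of the proximal tubule markers, GGT1 was at 71.7 to 195 TPM, while LRP2 and CUBN, the endocytic receptors of that segment, stood at 0.02 TPM or less in every library. Of the epithelial markers, the keratin KRT8 was at 389 to 678 TPM, E-cadherin (CDH1) was at 0.28 TPM or less in every library, and EPCAM was at 19.86 to 31.32 TPM in NG and 3.95 to 16.09 TPM elsewhere. Of the immune markers, the leukocyte gene PTPRC was at 0.07 TPM or less, while CD68, a lysosomal protein used as a macrophage marker, was at 108 to 159 TPM. Mitochondrial genes took up 4.94, 5.22 and 8.60% of TPM in the si-FGF9 libraries and 11.3 to 15.6% elsewhere. Small nuclear and nucleolar RNAs took up 1.65, 1.66 and 0.528% in the HG+OE-FGF9 libraries and at most 0.0833% elsewhere, and HG+OE-FGF9 replicates 1 and 2 had the smallest median absolute log2 difference of any pair within a group, 0.0571, though not the smallest SD of the log2 difference. The part of these differences in the results below was not tested.

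A gene is called higher or lower here when its log2 fold change reached 1 in either direction with an unadjusted p under 0.01, the criteria of the study. The values come from limma on log2(TPM + 1). The 14639 genes that reached 1 TPM in 3 libraries or more entered the fit, and the fold changes are on that scale, on which low values move less than their ratio in TPM. Of the 10 members 9 were tested. FGF5 did not reach the minimum, and FGF9 reached it through the HG+OE-FGF9 libraries alone, so that 8 members have a value against NG.

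The siRNA is shown because FGF9 is its intended target and the si-FGF9 group is defined by it. The strand given in the labels, in capitals and followed by 2 overhanging T, is the sense strand, and the strand complementary to it has its seed, bases 2 to 8 from its 5′ end, in capitals.
si-FGF9 sense strand: CUAUGUUGCAUUAAAUAAAtt
complementary strand: uUUAUUUAaugcaacauag

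In GENCODE release 29 the 19 bases lie in FGF9, which is on the plus strand, at chr13:21701294-21701312 (GRCh38), in exon 3 of 3 and at coding bases 486 to 504 of 624. The coding sequence around them, at chr13:21701234-21701372, is shown with the target in capitals.
FGF9 target: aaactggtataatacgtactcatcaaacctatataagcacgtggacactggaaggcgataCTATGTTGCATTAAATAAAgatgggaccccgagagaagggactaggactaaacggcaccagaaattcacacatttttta

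The target holds 4 G or C among its 19 bases, 21.1%, against 40.3% in the 139 bases shown. Of the 206694 transcripts searched, none of another gene held the 19 bases. The 7 bases TAAATAA, which pair with the seed, were counted on the sense strand of the longest transcript of each member. They occurred 5 times in FGF2, 3 times in FGF9, once each in FGF5 and FGFR2, and in none of the other 6 members. Over all genes tested with an annotated transcript, 34.4% held at least 1 such match, and a match is a description of the letters, not of a bound site.

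FGF9 was the check of both manipulations. It was listed at 0 in all 9 libraries of NG, HG and si-FGF9, and at 3.34, 4.03 and 3.82 TPM in HG+OE-FGF9, a mean of 3.73 ± 0.354 TPM (SD, n = 3). The values of the overexpressing libraries go with their label. With FGF9 listed at 0 in NG, a reduction by the siRNA could not be measured in these values, nor could a change of endogenous FGF9 with glucose. FGF9 was called higher than in HG (adjusted p = 1.88e-06, limma with Benjamini-Hochberg adjustment). It had to differ, since it passed the filter through HG+OE-FGF9 alone, and no fold is given because HG was listed at 0. In HG+OE-FGF9 the mean of FGF9 lay near that of FGF1 and below that of FGF2, at 3.95 and 11.3 TPM. In replicate 3 FGF9, at 3.82 TPM, was above FGF1, at 2.57 TPM. The FGF9 transcript of 4220 bases has 624 coding bases, and the length of the vector's FGF9 is not given. Since TPM is scaled for transcript length, the level of the vector's FGF9 cannot be ranked against these genes.

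FGF2, a heparin-binding ligand made by many cell types, was the ligand with the highest level. It was at 51.49, 52.95 and 46.61 TPM in NG, 10.35, 6.06 and 30.79 TPM in HG, 9.64, 10.09 and 6.98 TPM in si-FGF9, and 10.29, 10.26 and 13.34 TPM in HG+OE-FGF9. Every NG library lay above all 9 others, and HG replicate 3 stood between NG and the rest. FGF2 fell in HG by a log2 fold change of -1.91 (SE 0.407, adjusted p = 0.00314, limma with Benjamini-Hochberg adjustment), and with each library left out in turn the value ranged from -2.52 without HG replicate 3 to -1.43 without HG replicate 2, called in each. It fell in si-FGF9 by -2.39 (SE 0.407, adjusted p = 0.000235, limma). HG+OE-FGF9 and HG overlapped, with a difference of -0.16 and a 95% confidence interval from -1.05 to 0.73 on the log2 scale.

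The transcript of FGF2 is rich in A and T, with a GC content of 37.5%, at percentile 6.8 of the genes tested. After a correction for GC content, which removes from each library the trend of levels on GC content, the FGF2 differences were -0.79 (adjusted p = 0.0333, limma with Benjamini-Hochberg adjustment) in HG and -0.73 in si-FGF9, and neither reached the fold criterion. The direction was kept, and the size was smaller than with the deposited values. Under scaling by the median of ratios, which centres the libraries on their common genes, FGF2 was at -1.41 in HG and in si-FGF9. Both were called, with adjusted p of 0.00987 and 0.00479 (limma).

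FGF1, a ligand that binds all FGF receptors, was much lower than FGF2. It was at 2.01, 1.74 and 2.47 TPM in NG, 2.82, 1.89 and 1.42 TPM in HG, 0.19, 2.78 and 1.83 TPM in si-FGF9 and 5.21, 4.06 and 2.57 TPM in HG+OE-FGF9. The 3 HG+OE-FGF9 libraries lay above all NG libraries, but overlapped with HG and si-FGF9. The difference from HG was 0.69 (SE 0.371, adjusted p = 0.24, limma with Benjamini-Hochberg adjustment), with a 95% interval from -0.12 to 1.50. No pair of groups differed at an adjusted p under 0.05, and the nearest was HG+OE-FGF9 versus si-FGF9 with 1.05 (adjusted p = 0.0583, limma), in which si-FGF9 replicate 1 was far below the other libraries.

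FGF5, a ligand known for its part in the hair cycle, was between 0.06 and 0.38 TPM in the 12 libraries and was not tested in the main fit. Its mean was 0.317 TPM in NG, followed by 0.207 TPM in HG, 0.143 TPM in si-FGF9 and 0.0867 TPM in HG+OE-FGF9. With every listed gene in the fit, the 3 log2 fold changes were -0.12 for HG and -0.20 for si-FGF9, both against NG, and -0.15 for HG+OE-FGF9 against HG, with adjusted p of 0.565, 0.103 and 0.474 (limma).

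**Figure D1:**
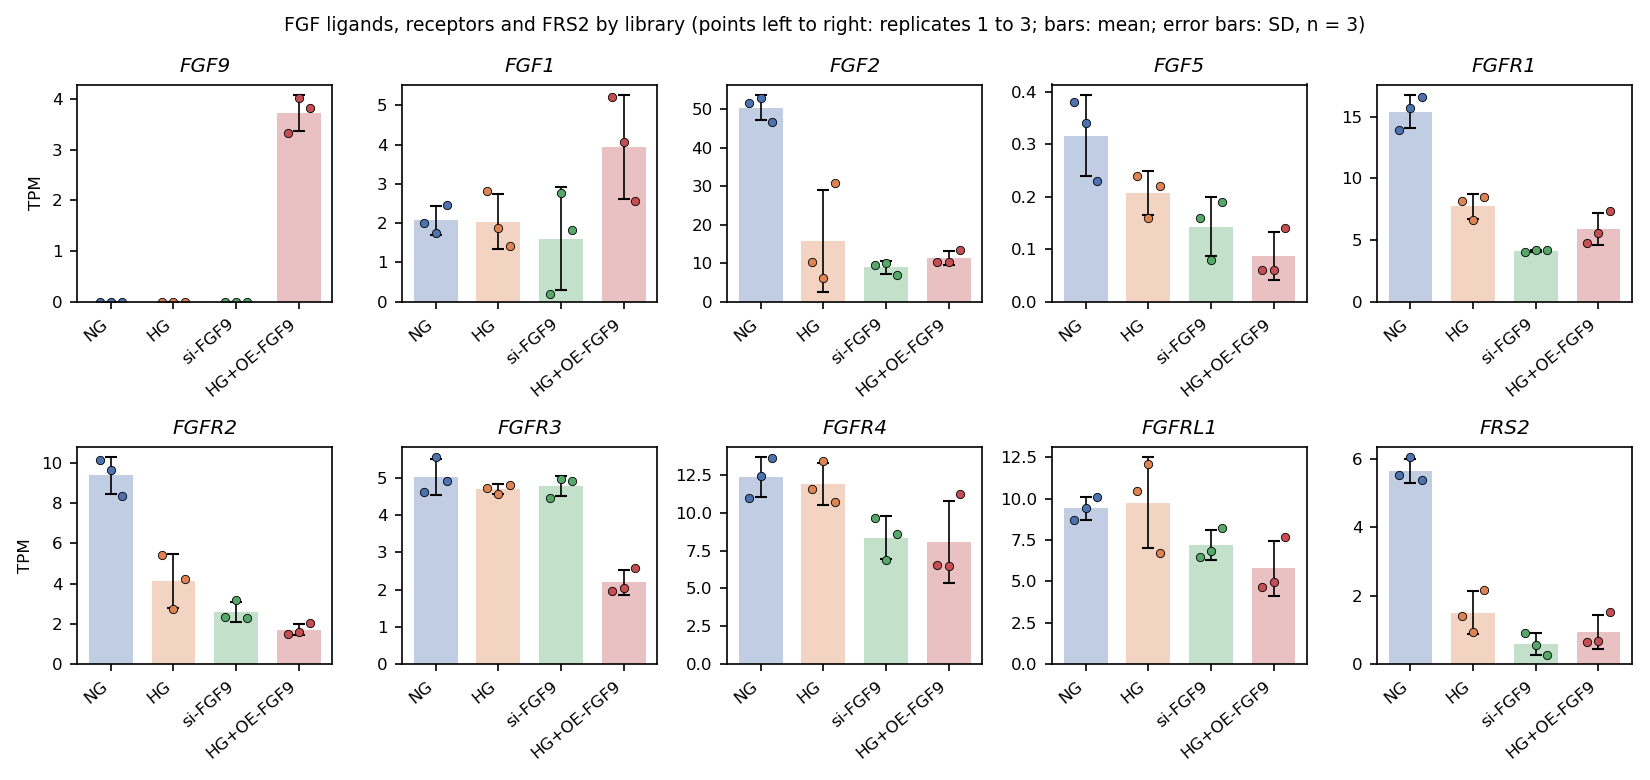
TPM of the 10 members in the 12 libraries, with a linear axis of its own for each gene; points are libraries, bars are group means and error bars the SD of 3 libraries. FGF9 is above 0 in the HG+OE-FGF9 libraries alone, FGF2, FGFR1, FGFR2 and FRS2 are highest in NG, and FGFR3 is lowest in HG+OE-FGF9.

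All 4 receptor tyrosine kinases were detected in every library. In NG the order of the mean levels was FGFR1, at 15.4 TPM, then FGFR4, FGFR2 and FGFR3. In the other 3 groups FGFR4 had the highest mean. The receptors fell into different patterns over the groups: FGFR1 and FGFR2 were highest in NG, FGFR3 was level in 3 groups and lower in HG+OE-FGF9, and FGFR4 and FGFRL1 overlapped between most groups.

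FGFR1, the receptor most widely expressed in mesenchymal and many cultured cells, was at 13.92, 15.71 and 16.58 TPM in NG, 8.17, 6.59 and 8.47 TPM in HG, 4.06, 4.17 and 4.15 TPM in si-FGF9, and 4.79, 5.53 and 7.35 TPM in HG+OE-FGF9. The NG libraries lay above all others, and the si-FGF9 libraries below all others. The difference of HG from NG was -0.91 (SE 0.177, adjusted p = 0.00212, limma with Benjamini-Hochberg adjustment), which did not reach the fold criterion. FGFR1 fell in si-FGF9 by -1.67 (SE 0.177, adjusted p = 1.29e-05, limma), from a mean of 15.4 to 4.13 TPM, 3.73-fold lower. HG and si-FGF9 differed by -0.76 (adjusted p = 0.00954, limma), while HG+OE-FGF9 was not told apart from HG, with -0.35 and a 95% interval from -0.74 to 0.03, or from si-FGF9, with 0.41 (adjusted p = 0.112, limma).

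FGFR1 has a GC content of 51.3%, near the middle of the genes tested. It was the one member still called against NG after the GC correction, in si-FGF9 with -1.10 (adjusted p = 5.31e-05, limma with Benjamini-Hochberg adjustment). Under scaling by the median of ratios the si-FGF9 difference was -0.76 and was not called.

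FGFR2, whose epithelial splice form binds FGFs of the surrounding mesenchyme, was at 10.13, 9.64 and 8.37 TPM in NG, 5.40, 2.74 and 4.24 TPM in HG, 2.34, 3.17 and 2.29 TPM in si-FGF9, and 1.49, 1.60 and 2.02 TPM in HG+OE-FGF9. The values are per gene and do not separate the splice forms. NG was apart from all others, and HG+OE-FGF9 lay below every library of the other groups. FGFR2 fell in HG by -1.05 (SE 0.214, adjusted p = 0.0026, limma with Benjamini-Hochberg adjustment), which was no longer called without HG replicate 2, at -0.84, or without NG replicate 1, at -0.996. It fell in si-FGF9 by -1.53 (adjusted p = 5.8e-05, limma). Neither call held under another scaling. HG versus NG was -0.59 under the median of ratios and -0.68 after the GC correction, and si-FGF9 versus NG was -0.68 and -0.82.

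HG+OE-FGF9 was lower than HG in FGFR2 by -0.89 (SE 0.214, adjusted p = 0.0237, limma with Benjamini-Hochberg adjustment), a mean of 1.70 against 4.13 TPM, and short of the fold criterion except without HG replicate 2, at -1.10, or with a pseudocount of 0.1, at -1.19. The adjusted p rose to 0.161 when only the 6 libraries of the 2 groups were fitted, to 0.0627 without the filter, to 0.0507 with a replicate block, and to between 0.105 and 0.115 without HG replicate 1 or HG+OE-FGF9 replicate 1 or 2 (limma with Benjamini-Hochberg adjustment). Neither HG nor HG+OE-FGF9 was told apart from si-FGF9, with differences of -0.48 for si-FGF9 versus HG (adjusted p = 0.0973, limma) and -0.41 for HG+OE-FGF9 versus si-FGF9 (adjusted p = 0.183, limma).

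FGFR3, a receptor to which FGF9 is known to bind well, had another pattern. It was at 4.62, 5.56 and 4.92 TPM in NG, 4.73, 4.57 and 4.81 TPM in HG, 4.47, 4.96 and 4.91 TPM in si-FGF9, and 1.95, 2.03 and 2.59 TPM in HG+OE-FGF9. The 9 libraries without the FGF9 vector spanned 4.47 to 5.56 TPM with overlapping groups, and the 3 with it lay below all of them. HG+OE-FGF9 was lower than HG by -0.84 (SE 0.158, adjusted p = 0.0077, limma with Benjamini-Hochberg adjustment), 2.19 ± 0.349 against 4.70 ± 0.122 TPM (SD, n = 3 each), or 2.15-fold lower in TPM. On the log2(TPM + 1) scale this did not reach the fold criterion, and with a pseudocount of 0.1 it was -1.08 and did.

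The lower FGFR3 level in HG+OE-FGF9 held against each of the other groups, with -0.92 against NG (adjusted p = 0.000343, limma with Benjamini-Hochberg adjustment) and -0.86 against si-FGF9 (adjusted p = 0.00299, limma). Of all genes, 64.9% differed between HG+OE-FGF9 and NG at an adjusted p under 0.05, 24.9% between HG+OE-FGF9 and si-FGF9, and 32.9% between si-FGF9 and HG. Against HG it was -0.74 under scaling by the median of ratios (adjusted p = 0.00918, limma) and -0.90 after the GC correction (adjusted p = 0.00242, limma), and ranged from -0.93 to -0.79 when each library was left out in turn, with adjusted p from 0.00245 to 0.0508, the highest without HG+OE-FGF9 replicate 1. When only the 6 libraries of HG and HG+OE-FGF9 were fitted, with the same difference and a SE of 0.216, the adjusted p was 0.121 (limma). FGFR3 in HG and si-FGF9 differed from NG by -0.08 and -0.06, with 95% intervals from -0.42 to 0.27 and from -0.40 to 0.28. Under scaling by the median of ratios these 2 values were 0.34 and 0.79, so that a direction of FGFR3 against NG depends on the scaling.

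FGFR4, a receptor known in liver for FGF19 signalling, was at 10.99, 12.44 and 13.63 TPM in NG, 11.56, 13.41 and 10.74 TPM in HG, 9.64, 6.86 and 8.57 TPM in si-FGF9, and 6.57, 6.49 and 11.22 TPM in HG+OE-FGF9. The HG libraries overlapped with NG, and the difference was -0.05 with a 95% interval from -0.52 to 0.42. The si-FGF9 libraries lay below both, by -0.52 against NG (adjusted p = 0.0461, limma with Benjamini-Hochberg adjustment). This turned to 0.42 under scaling by the median of ratios, and was -0.73 after the GC correction (adjusted p = 0.00474, limma). HG+OE-FGF9 replicate 3 stood at the HG level while replicates 1 and 2 were lower, and the difference from HG was -0.54 (adjusted p = 0.128, limma).

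FGFRL1, which binds FGFs but has no kinase domain, was at 8.71, 9.42 and 10.07 TPM in NG, 10.47, 12.07 and 6.70 TPM in HG, 6.47, 6.85 and 8.19 TPM in si-FGF9, and 4.67, 4.96 and 7.69 TPM in HG+OE-FGF9. HG differed from NG by 0.01, with a 95% interval from -0.48 to 0.51, and HG replicate 3 lay below the NG libraries while the other HG libraries lay above them. HG+OE-FGF9 differed from HG by -0.66 (adjusted p = 0.0903, limma with Benjamini-Hochberg adjustment), and after the GC correction by -0.71 (adjusted p = 0.0179, limma). The groups overlapped at HG replicate 3 and HG+OE-FGF9 replicate 3.

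**Figure D2:**
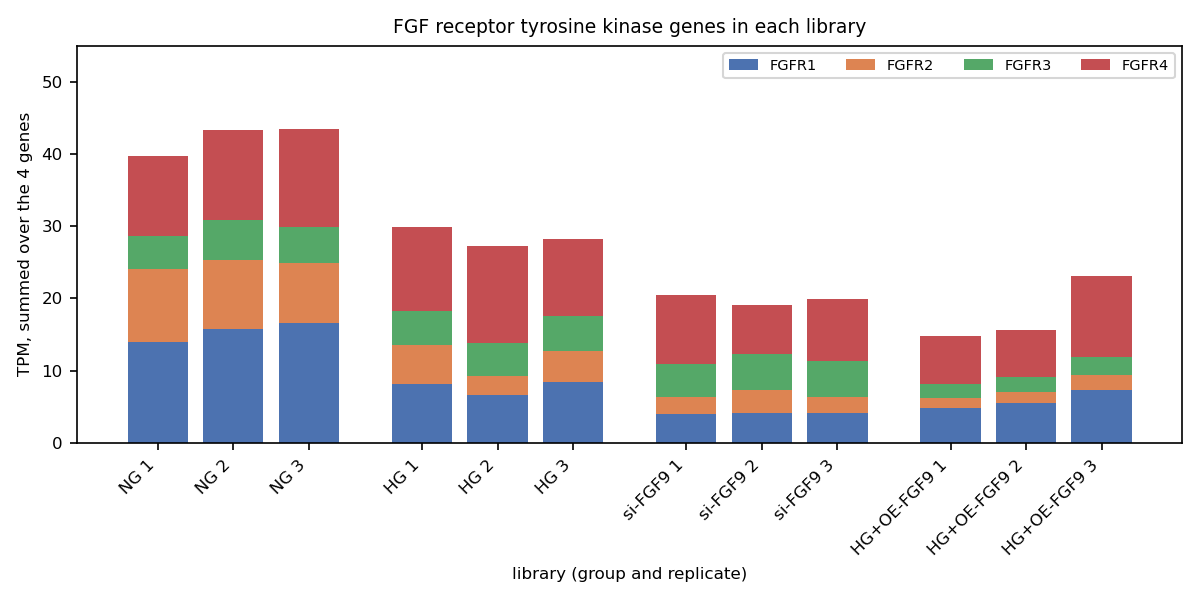
TPM of FGFR1, FGFR2, FGFR3 and FGFR4 stacked for each library, on a linear axis. With the deposited values the sum is highest in the 3 NG libraries, and among the HG+OE-FGF9 libraries replicate 3 stands above replicates 1 and 2.

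The 4 receptor kinases together came to 42.2 ± 2.18 TPM in NG, 28.5 ± 1.29 TPM in HG, 19.9 ± 0.68 TPM in si-FGF9 and 17.9 ± 4.61 TPM in HG+OE-FGF9 (SD, n = 3 each). With the deposited values the first 3 groups did not overlap. The HG+OE-FGF9 libraries, at 14.8, 15.65 and 23.18 TPM, lay on both sides of si-FGF9. The sum depends on how the libraries are scaled. The median-of-ratios factors, by which TPM are divided, were 1.44 to 1.52 in NG, 0.90 to 1.12 in HG and 0.69 to 0.76 in si-FGF9. They run in the same order as the sums of these groups. In HG+OE-FGF9 they were 0.87 to 1.10. A difference in the sum under that scaling was not tested. The make-up of the sum differed as well. FGFR1 took up 36.5% of it in NG, and the HG share was 27.2%, that of si-FGF9 20.8% and that of HG+OE-FGF9 33.1%. The share of FGFR3, with the groups in the same order, was 11.9, 16.5, 24.1 and 12.5%, and that of FGFR2 was 22.3, 14.4, 13.1 and 9.67%. FGFR4 took up 29.2% in NG and between 41.9 and 44.8% in the other groups. Shares within a library do not depend on how the library is scaled, but they are not free of GC content, since FGFR3 and FGFR4 have GC contents of 62.0 and 63.6%, above those of FGFR1 and FGFR2.

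FRS2, the membrane-bound adaptor of the FGF receptors, showed a large difference from NG. It was at 5.53, 6.06 and 5.40 TPM in NG, 1.40, 0.94 and 2.18 TPM in HG, 0.92, 0.56 and 0.27 TPM in si-FGF9, and 0.65, 0.67 and 1.51 TPM in HG+OE-FGF9. The NG libraries lay above all 9 others, and the si-FGF9 libraries lay below the HG ones. FRS2 fell in HG by -1.44 (SE 0.239, adjusted p = 0.00121, limma with Benjamini-Hochberg adjustment), 3.76-fold lower in TPM, and in si-FGF9 by -2.09 (SE 0.239, adjusted p = 1.84e-05, limma), 9.71-fold lower. Between HG and si-FGF9 the difference was -0.65 (adjusted p = 0.0535, limma), and HG+OE-FGF9 differed from HG by -0.37, with a 95% interval from -0.89 to 0.16.

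Like FGF2, FRS2 had much smaller differences after the correction for GC content. Its transcript has a GC content of 36.9%, at percentile 5.2 of the genes tested, and after the correction the differences were -0.32 in HG (adjusted p = 0.128, limma with Benjamini-Hochberg adjustment) and -0.44 in si-FGF9 (adjusted p = 0.0267, limma), neither of which was called. Under scaling by the median of ratios they were -1.01 and -1.45, and both were called.

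Counted over the members with a value, 3 of 8 were called lower in HG than in NG, namely FGF2, FGFR2 and FRS2, and 0 higher. Of all genes tested, 24.4% were called in that comparison, 22.7% lower and 1.65% higher. In si-FGF9 versus NG, 4 of 8 were called lower, the same 3 genes and FGFR1, where 47.6% of all genes were called, 42.2% lower and 5.36% higher. At an adjusted p under 0.05 with no fold criterion, limma gave 4 of 8 members in HG, where 49% of all genes passed, and 5 of 8 in si-FGF9, where 69.3% passed. The libraries of HG lay wholly below those of NG for 4 of 8 members, as they did for 46.5% of all genes, and those of si-FGF9 for 6 of 8, as for 62.1% of all genes. The counts of members are near these backgrounds and say nothing particular to the FGF system. The median log2 fold change of the 8 members was -0.49 in HG and -1.03 in si-FGF9, and that of all genes was -0.39 and -0.79. Both comparisons use the same NG libraries.

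In HG+OE-FGF9 versus HG, 1 of 9 members was called, FGF9 itself. Its call was fixed, since it passed the filter through HG+OE-FGF9 alone, and no other member was called. Of all genes 5.61% were called, 2.94% higher and 2.67% lower. At an adjusted p under 0.05 (limma), FGFR2 and FGFR3 were the 2 members that passed beside FGF9, where 9.53% of all genes passed. Neither receptor passed in the fit on the 6 libraries alone. Tested members that were lower with no overlap between the groups were FGFR2 and FGFR3, where 9.95% of all genes tested were lower without overlap. They are 2 of 9 members, among which FGF9 could not be lower. FGF5, below the minimum level and not tested, was also lower without overlap, at 0.16 to 0.24 TPM in HG and 0.06 to 0.14 TPM in HG+OE-FGF9. The median over all genes was -0.13 in this comparison. Relative to it, FGFR3 was at -0.71 and FGFR2 at -0.76.

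**Figure D3:**
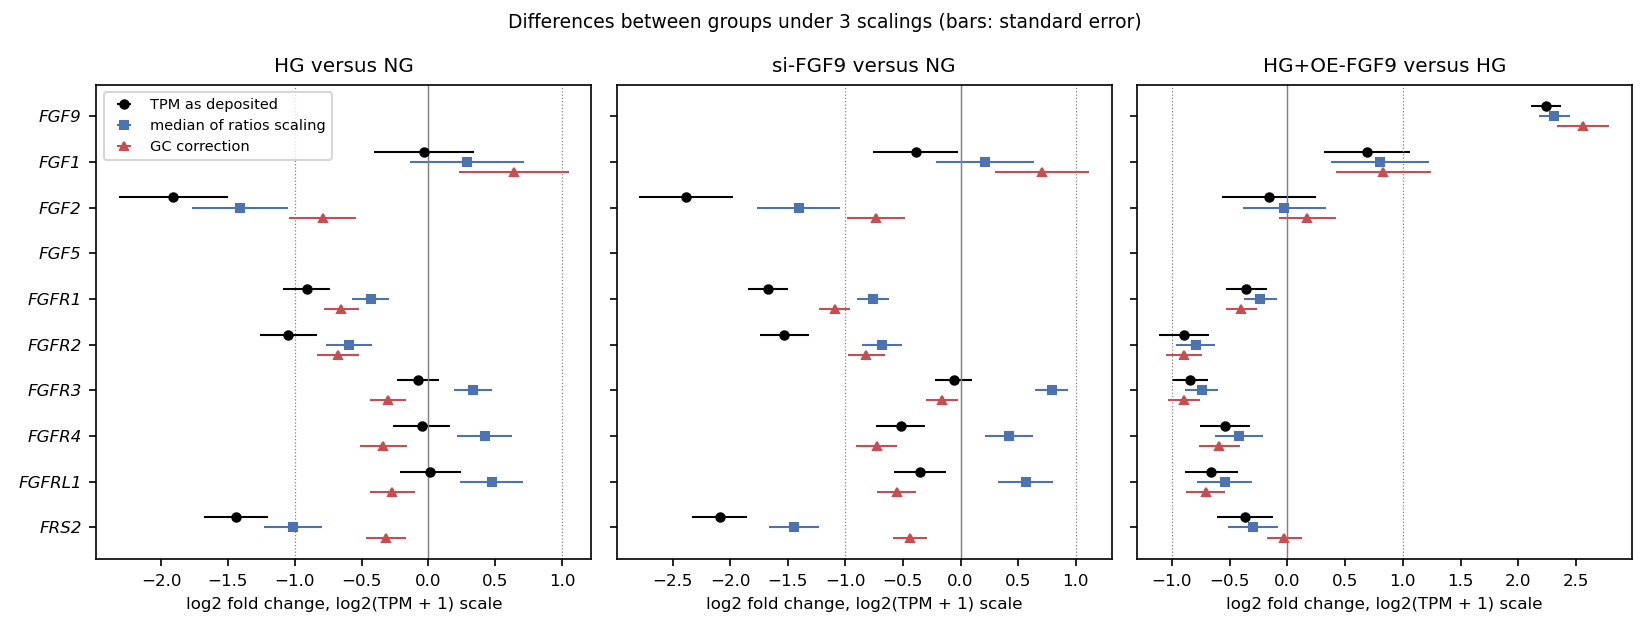
Log2 fold changes of the members on the log2(TPM + 1) scale in the 3 comparisons, with bars for the standard error and dotted lines at the fold criterion. Circles are the deposited values, squares the values scaled by the median of ratios and triangles those corrected for GC content. All receptors and FRS2 stay below 0 in HG+OE-FGF9 versus HG under all 3. FGF1, FGFR3, FGFR4 and FGFRL1 change sides against NG. The position of FGF9 depends on the pseudocount, since HG was listed at 0.

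The likeness of patterns is given as a description, since the 12 points share groups and scaling. Over the 12 libraries, Pearson's r of log2(TPM + 1) was 0.97 between FGFR1 and FRS2, 0.95 between FGF2 and FRS2, and 0.86 between FGFR4 and FGFRL1. FGF9 and FGFR3 had r = -0.97, which rests on the HG+OE-FGF9 libraries, the only ones where FGF9 was above 0. Among all genes tested, JMY, PPP1R15B and DNAJC3 were the most like FGF2, with r of 0.994 to 0.996, EXOC6B, PKN2 and UBE3A the most like FRS2, also with 0.994 to 0.996, and DAB2IP, CEP72 and P3H1 the most like FGFR4, with 0.938 to 0.962.

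A further 61 genes of the FGF pathway were taken by role, of which 40 were tested. Of the 18 other ligand genes 2 reached the minimum level, and of the 3 FGF-binding proteins 0. In HG versus NG, 15 of the 40 were called lower and 1 higher, with a median log2 fold change of -0.79, against 22.7% and 1.65% of all genes and a median of -0.39. Without HG replicate 2 the counts were 9 lower and 0 higher. They became 7 lower and 2 higher under scaling by the median of ratios, and 3 lower and 0 higher after the GC correction.

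The coreceptor KL (klotho), which serves endocrine FGF23 in the renal tubule, fell in HG from a mean of 6.68 to 1.38 TPM, -1.72 on the log2 scale. The heparan sulphate carriers GPC6 and GPC4 fell, by -1.58 and -1.39. Among adaptors, 5 of 11 were called lower, against 22.7% of all genes. The phosphatase PTPN11 was at -1.69 and the RAS exchange factors SOS2 and SOS1 at -1.63 and -1.50. After the GC correction PTPN11, SOS2 and SOS1 were at -0.81, -0.61 and -0.39, and none of them was called. Of the kinase cascade, BRAF and NRAS fell, with -1.35 and -1.24, while HRAS rose by 1.10, from 15.9 to 36.7 TPM. The call for BRAF was lost without HG replicate 1 or 2 or any 1 of the NG libraries, and HG replicate 3, at 9.59 TPM, lay just below the lowest NG library, at 9.83 TPM. Without HG replicate 2, NRAS was at -0.95 and HRAS at 0.85, and neither was called.

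Feedback and target genes, which FGF and ERK signalling is known to induce, were called lower in 4 of 8 cases, against 22.7% of all genes. The targets ETV4 and ETV5 were not called, at means of 14.1 and 21.8 TPM in NG and 11.8 and 17.0 TPM in HG. The ERK phosphatase DUSP6 fell from 24.1 to 4.08 TPM, a log2 fold change of -2.32, and the inhibitor SPRY2 fell by 1.64. KL, DUSP6 and SPRY2 were the 3 pathway genes still called after the GC correction, at -1.14, -1.82 and -1.25. HRAS was at 0.73 after that correction and was not called.

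In si-FGF9 versus NG, 23 of the 40 were called lower and 2 higher, against 42.2% and 5.36% of all genes, with a median of -1.25 against -0.79. Under scaling by the median of ratios the counts were 14 and 6, and after the GC correction 11 and 3. The coreceptors KL, GPC4 and GPC6 fell, with log2 fold changes of -2.37, -2.31 and -1.32, and GPC6 was at 0.12 after the GC correction. PTPN11, SOS2 and the phospholipase PLCG1 fell as well, with -2.57, -2.42 and -2.32.

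NRAS and the ERK-activating kinase MAP2K1 fell in si-FGF9, with -2.09 and -1.87, while MAP2K2, its close homologue, rose by 1.80 from 104 to 363 TPM and HRAS rose by 1.37. Of the feedback and target genes 6 of 8 were called lower, against 42.2% of all genes, among them DUSP6, SPRY2 and SPRY1 with -2.87, -2.61 and -1.90. ETV4 and ETV5 were not called, at means of 14.1 and 21.8 TPM in NG and 17.3 and 17.5 TPM in si-FGF9. The calls for KL, GPC4, PTPN11, PLCG1, MAP2K2, HRAS, DUSP6 and SPRY2 were kept under both the median-of-ratios scaling and the GC correction.

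**Figure D4:**
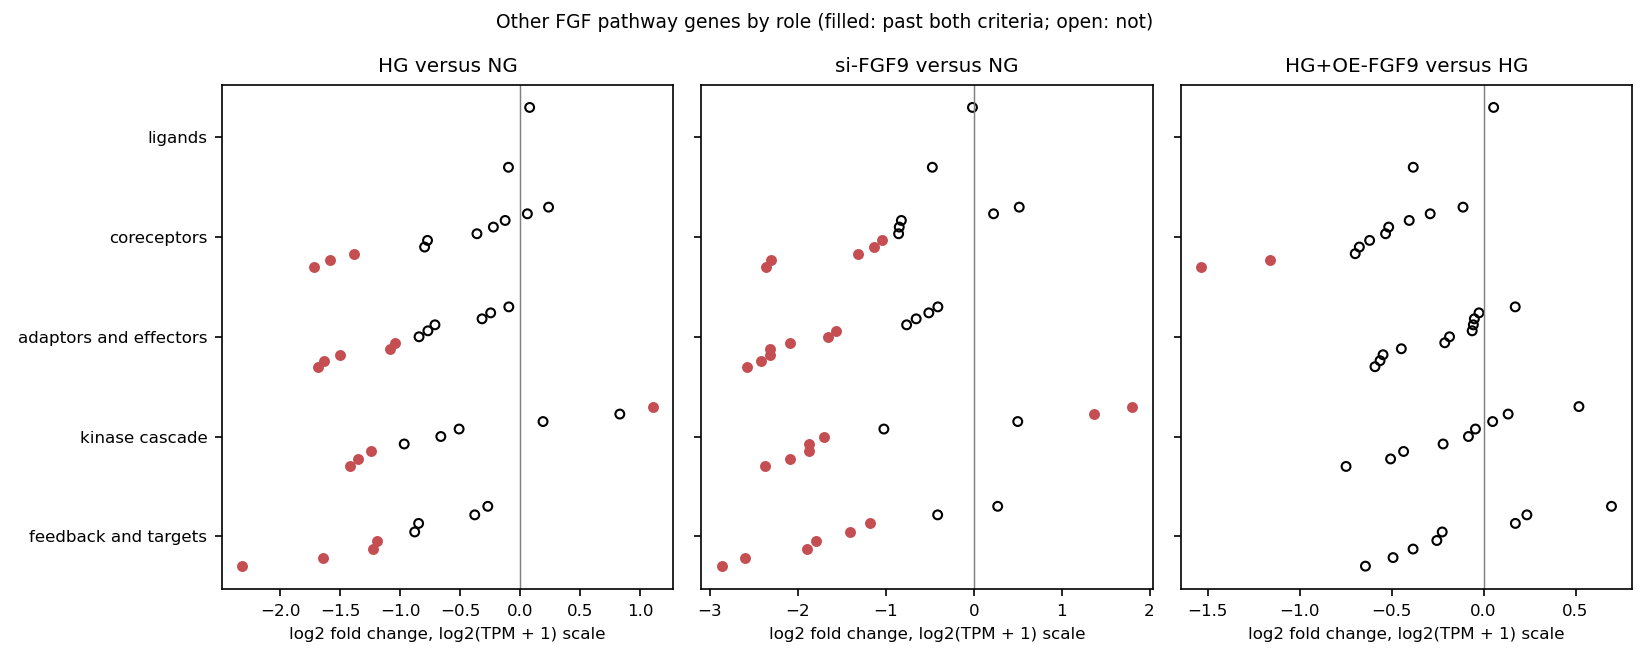
Log2 fold changes, on the log2(TPM + 1) scale, of the 40 other FGF pathway genes tested, by role, with filled points for genes past both criteria and a separate axis range in each panel. Most called genes lie below 0 against NG, HRAS and MAP2K2 lie above 0 in si-FGF9, and 2 coreceptors are called in HG+OE-FGF9 versus HG.

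In HG+OE-FGF9 versus HG, 2 of the 40 were called lower and 0 higher, against 2.67% and 2.94% of all genes, and both carry heparan sulphate. HSPG2 (perlecan), a basement membrane proteoglycan, was at 43.51, 40.70 and 42.67 TPM in HG and 10.86, 12.01 and 20.59 TPM in HG+OE-FGF9. It fell by 1.53 (SE 0.204, adjusted p = 0.0011, limma with Benjamini-Hochberg adjustment), and was called without each library in turn, under scaling by the median of ratios and after the GC correction.

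GPC4 (glypican 4) was at 24.21, 16.82 and 25.23 TPM in HG and 7.11, 6.59 and 16.13 TPM in HG+OE-FGF9, where replicate 3 lay just below the lowest HG library. It fell by 1.16 (SE 0.274, adjusted p = 0.0222, limma with Benjamini-Hochberg adjustment). Without HG+OE-FGF9 replicate 1 the difference was -0.997 and without replicate 2 it was -0.95, and neither was called. Over the pathway list, the count of 2 became 1 when HG+OE-FGF9 replicate 1 or 2 was left out, 3 when its replicate 3 was, and 4 when HG replicate 2 was. None of the adaptors, kinases or feedback genes was called, and the medians of these groups were between -0.24 and -0.08.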

How the data were processed

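RNA-seq of HK2 cells was analysed in 12 libraries, 3 per group. The authors deposited TPM for each Ensembl gene, summing to 1000000 per library and given to 2 decimals, so depth and counting error are unknown. The submitters' processing notes name Bowtie 0.12.2 and the build mm8, a mouse build, without a role; the quantification tool is not given in the sources used here. Group and replicate were taken from the labels.

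limma 3.58.1 in R 4.3.3 was run on log2(TPM + 1) with an empirical Bayes variance trend, all 12 libraries in one fit, and Benjamini-Hochberg adjustment over the 14639 genes tested. The fit was tested on simulated data. Other pathway genes were named as the 3 largest called changes per role and direction with a mean of at least 1 TPM. Some genes that this rule or the marker lists name are not reported here. Pattern neighbours were the 3 genes with the highest r for the ligand and the receptor of highest mean level and for FRS2. The members, lists and tests were chosen with earlier results of these data known. GC content came from the longest GENCODE release 29 transcript (96.9% of the genes tested), and a natural spline with 5 degrees of freedom was subtracted per library. The siRNA was searched in the same transcripts. Alternatives were no filter, a pseudocount of 0.1, 6 libraries only, a replicate block, other p criteria, median-of-ratios scaling, GC correction with and without the block, and each library left out. A fit without the variance trend and HG+OE-FGF9 replicates 1 and 2 averaged as 1 sample were added after seeing the data.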

Additional observations from a re-analysis of the deposited data

How the results depend on the processing

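Depth is unknown and there are 3 libraries per group, so that 0.1 is the smallest two-sided p of an exact permutation test for 1 gene. Against NG, the number of members called depended on the scaling. In HG versus NG, 3 members were called with the deposited values and 0 after the GC correction, with or without the replicate block. In si-FGF9 versus NG, 4 were called, 2 under the median of ratios, and 1 after the GC correction with or without the block. In HG+OE-FGF9 versus HG, 1 was called, 3 with a pseudocount of 0.1, and from 1 to 2 with a library left out, FGF9 among them each time. Genes called numbered 3570 in HG versus NG (242 higher, 3328 lower), 2303 under the median of ratios (1063 higher, 1240 lower), 970 after the GC correction (536 higher, 434 lower), 968 with the block as well, and from 2238 to 4746 with a library left out, the lowest without HG replicate 2. In si-FGF9 versus NG they numbered 6966 (785 higher, 6181 lower), 5387 under the median of ratios (2774 higher, 2613 lower), 3452 after the GC correction (1751 higher, 1701 lower) and 3426 with the block as well. In HG+OE-FGF9 versus HG they numbered 821 (430 higher, 391 lower), 786 under the median of ratios (505 higher, 281 lower), 739 after the GC correction (430 higher, 309 lower), and from 549 to 1617 with a library left out, the highest when HG+OE-FGF9 replicate 3 was left out and 1360 when HG replicate 2 was.

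Signs reversed for FGF1, FGFR3, FGFR4 and FGFRL1 against NG, and for FGF2 in HG+OE-FGF9 versus HG. The value of FGFR4 in si-FGF9, -0.52 with the deposited values, was among them. Under the median of ratios, HG versus NG became 0.29 for FGF1, 0.34 for FGFR3 and 0.42 for FGFR4, and si-FGF9 versus NG became 0.22 for FGF1, 0.79 for FGFR3, 0.42 for FGFR4 and 0.57 for FGFRL1. This scaling moved the median of all genes from -0.39 to 0.00 in HG and from -0.79 to -0.01 in si-FGF9. After the GC correction, with or without the block, FGF1 was 0.64 in HG and 0.71 in si-FGF9, FGFRL1 in HG was -0.27, and FGF2 in HG+OE-FGF9 versus HG was 0.17. With each library left out, HG versus NG ranged from -0.21 to 0.12 for FGF1, -0.13 to 0.0183 for FGFR4 and -0.14 to 0.24 for FGFRL1, si-FGF9 versus NG from -0.74 to 0.10 for FGF1 and -0.11 to 0.0019 for FGFR3, and HG+OE-FGF9 versus HG from -0.64 to 0.45 for FGF2. The cause of these changes was not tested. The deviations of replicates with the same number from their group means correlated with r of -0.16 to 0.25. In HG+OE-FGF9 versus HG they were -0.14, 0.25 and 0.19 for replicates 1 to 3. With 3 libraries per group this does not settle whether the numbers pair the samples. With the replicate block 3, 4 and 1 members were called, as without it, and 3518, 6922 and 793 genes.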

Other observations

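Of the pathway genes below the minimum level, a few were higher in HG+OE-FGF9, and they are named here after their values were seen. FGF22, a ligand of the FGF7 subfamily, was at 1.93, 1.64 and 0.74 TPM in HG+OE-FGF9 and at most 0.47 TPM in the other 9 libraries. KLB (beta-klotho), the coreceptor for FGF19 and FGF21, was at 0.71, 0.75 and 0.13 TPM in HG+OE-FGF9 and at most 0.06 TPM elsewhere. IL17RD, an inhibitor of FGF receptor signalling, was at 0.55, 0.50 and 0.12 TPM in HG+OE-FGF9 and at most 0.17 TPM elsewhere, so that replicate 3 overlapped with the others. In all of these, replicates 1 and 2 were close and replicate 3 was lower, as was its share of small nuclear and nucleolar RNAs. No test was made.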
